A study of Mus musculus with 24 samples.

Results

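A set of 1551 gene promoters carried a CUT&RUN peak in GSK-126 replicate 3 and in none of the other 23 libraries of the same study of H3K27me3, the trimethyl mark on lysine 27 of histone H3. The promoters were selected on the deposited peak lists themselves. A promoter here is a window that reaches 3 kb upstream and 3 kb downstream of where a protein-coding gene starts in GENCODE (mouse mm10 build), and it was a member when at least 1 base of a peak of GSK-126 replicate 3 lay in it and no base of a peak of any other library did. Of 21938 promoters, 7.07% were members, and of the 15144 promoters with no peak in the other 23 libraries, 10.2% were. Because peaks chose the members, their presence in 1 library and their absence from the rest are a description and were given no test.

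The study cultured cerebellar granule neurons (CGNs) from the cerebella of CD1-IGS mouse pups of postnatal days 6 to 8 and profiled them by CUT&RUN, in which an antibody guides a nuclease to cut out marked chromatin for sequencing. GSK-126, an inhibitor of the methyltransferase EZH2, was given at 5 µM on day in vitro (DIV) 1 and the cells were harvested on DIV5, against a DMSO vehicle of the same schedule, whose libraries are called DMSO replicates 1 to 3. GSK-J4, which inhibits demethylases of the KDM6 family, was given at 1 µM on the same days, against vehicle libraries of its own, called GSK-J4 DMSO. Untreated cultures were harvested at DIV1, DIV3, DIV5 and DIV7. All cultures taken after DIV2 had received 1 µM cytosine arabinoside at DIV2 to stop the division of non-neuronal cells. There were 8 groups of 3 replicates, which the study describes as independent biological replicates, and the labels give no genotype.

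H3K27me3 is written by Polycomb repressive complex 2 (PRC2), whose catalytic subunit is EZH2, and is removed by KDM6A and KDM6B. It is best known for covering the CpG-island promoters of developmental regulators and of genes of other lineages that a cell keeps silent. The CpG-island promoters of housekeeping genes, which every cell transcribes, usually carry active marks and little H3K27me3, and the promoters of strictly tissue-specific families such as olfactory receptors are mostly poor in CpG.

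The members were strongly CpG-rich and their peaks were near the gene starts. The bases upstream of the 5' end are shown for 5 of the 6 members with the highest fold enrichment whose peak covered at least 40 of the 250 bases before the 5' end, taking each peak once. They show where these 5 peaks lay against the gene start, and the choice fixed that each reached upstream of it. Each line reads 5' to 3' on the strand of the gene and ends 1 base before the 5' end, capitals mark the bases under the peak of GSK-126 replicate 3, and the sequence is that of the GRCm38 reference (mm10).
Hnrnpul2: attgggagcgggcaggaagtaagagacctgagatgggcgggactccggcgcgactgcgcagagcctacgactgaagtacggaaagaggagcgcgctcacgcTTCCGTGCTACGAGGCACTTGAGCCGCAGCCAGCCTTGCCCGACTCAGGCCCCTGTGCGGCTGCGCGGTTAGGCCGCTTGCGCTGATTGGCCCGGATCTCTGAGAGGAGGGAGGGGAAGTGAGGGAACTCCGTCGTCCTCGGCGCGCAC
Sppl3: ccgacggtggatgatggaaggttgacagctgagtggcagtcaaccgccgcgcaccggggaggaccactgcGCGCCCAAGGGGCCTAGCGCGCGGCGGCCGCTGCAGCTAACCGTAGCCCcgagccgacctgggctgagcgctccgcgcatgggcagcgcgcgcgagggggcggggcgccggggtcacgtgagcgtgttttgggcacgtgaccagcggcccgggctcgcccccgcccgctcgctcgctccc
Taf3: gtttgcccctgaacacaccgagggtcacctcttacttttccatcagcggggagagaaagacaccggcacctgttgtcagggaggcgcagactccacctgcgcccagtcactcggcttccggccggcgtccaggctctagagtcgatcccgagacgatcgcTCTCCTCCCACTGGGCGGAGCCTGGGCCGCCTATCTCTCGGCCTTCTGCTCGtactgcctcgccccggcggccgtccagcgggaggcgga
Nsun6: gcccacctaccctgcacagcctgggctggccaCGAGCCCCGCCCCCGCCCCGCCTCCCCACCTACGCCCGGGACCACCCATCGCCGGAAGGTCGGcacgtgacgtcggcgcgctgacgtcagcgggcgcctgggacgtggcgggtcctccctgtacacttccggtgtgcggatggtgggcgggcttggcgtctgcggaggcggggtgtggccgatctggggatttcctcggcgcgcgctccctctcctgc
Sacm1l: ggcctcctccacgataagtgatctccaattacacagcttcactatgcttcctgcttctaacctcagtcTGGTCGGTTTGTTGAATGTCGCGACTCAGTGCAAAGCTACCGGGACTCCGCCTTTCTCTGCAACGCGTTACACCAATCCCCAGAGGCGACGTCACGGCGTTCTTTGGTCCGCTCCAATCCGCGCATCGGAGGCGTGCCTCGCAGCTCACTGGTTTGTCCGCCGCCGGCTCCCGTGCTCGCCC

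These stretches are chr19:8819760-8820009 on the plus strand for Hnrnpul2, chr5:115010887-115011136 on the plus strand for Sppl3, chr2:10048597-10048846 on the minus strand for Taf3, chr2:15055070-15055319 on the minus strand for Nsun6 and chr9:123529509-123529758 on the plus strand for Sacm1l. The 5 stretches had a GC content of 59.2% to 75.2% and between 23 and 36 CG dinucleotides in 250 bases. The Hnrnpul2 peak, with a fold enrichment of 5.83, covered the 149 bases next to the gene start, and the peak of Sacm1l, a phosphoinositide phosphatase gene, at 5.34, covered the last 182. The peaks of Sppl3, Taf3 and the RNA methyltransferase gene Nsun6 were 49 to 63 bases long and ended between 39 and 156 bases before it.

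Fold enrichment, the caller's ratio of the signal in a peak over its local background, was narrow among the members. Where a window held several peaks the strongest was taken. The median was 4.30, the quartiles were 4.15 and 4.54, and the range was 2.39 to 6.25. A fold enrichment from 4 to 5 was found at 1381 members (89.0%), 71 were above 5 and 99 below 4. The single most frequent value, 4.15, was shared by 237 members. The 1734 promoters that GSK-126 replicate 3 shared with at least 1 other library were spread more widely, with a median of 4.01 and a range of 2.21 to 11.7, and 47.3% of them lay from 4 to 5. Promoters with a peak in only 1 of the other 23 libraries also had close quartiles, at 3.75 and 4.12. Their median was 3.89 and their range 2.06 to 8.46. Values above 5 were found at 4.58% of the members and 3.06% of the shared promoters, and no member exceeded 6.25. Their −log10 q, the caller's significance after correction over the library, had a median of 1.49 and reached 4.45, against a median of 1.52 and a highest value of 16.9 at the shared promoters. Rbbp4, Gphn, Ccna2 and Foxk2, named below with the most frequent fold enrichment of 4.15, also had the same −log10 q, 1.29.

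**Figure D1:**
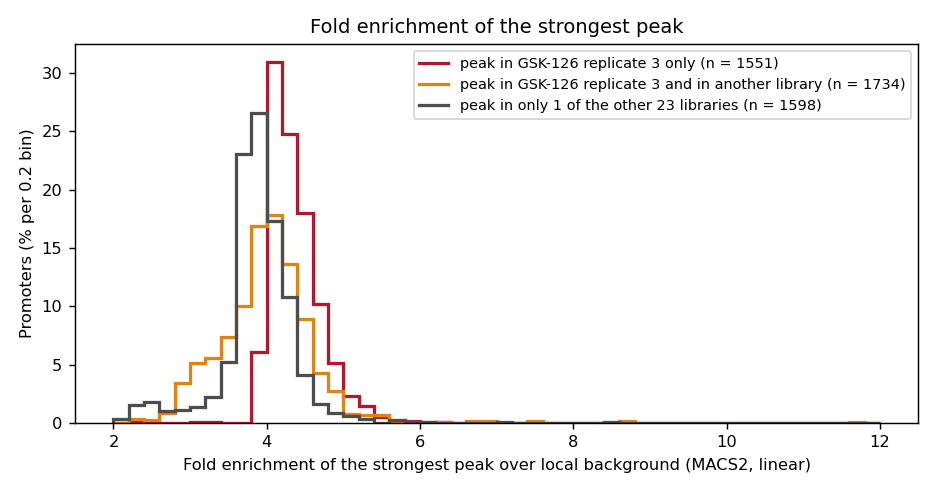
Fold enrichment of the strongest peak (x axis, linear) against the percentage of promoters in each bin of 0.2 (y axis), for members in red, promoters shared by GSK-126 replicate 3 with another library in orange, and promoters with a peak in only 1 of the other 23 libraries in grey. The members pile up between 4 and 5 with a median of 4.30, while the shared promoters run out to 11.7.

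The peaks were short and mostly single. A member's strongest peak was 162 bp long at the median (quartiles 100 and 230 bp, range 48 to 703 bp). At the shared promoters the median was 196 bp and the longest was 3942 bp. At promoters with a peak in only 1 of the other 23 libraries the median was 146 bp, shorter than at the members. Short peaks were thus not particular to the members. One peak was found at 1490 members, 2 at 60 and 3 at 1, the splicing factor gene Sf1. Peaks covered 2.80% of a member's window at the median and 11.7% at most. The 1551 windows were served by 1348 distinct peaks, since 259 peaks lay in the windows of 2 or more members and 502 members shared a peak. The members are thus fewer independent loci than their number.

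The position of the peak separated the members most clearly. The centre of the strongest peak lay 4.5 bp downstream of the 5' end at the median, with quartiles of −100 and 153 bp (negative values are upstream). It was within 500 bp of the 5' end at 1335 members (86.1%) and within 250 bp at 1127 (72.7%), and the peak covered the 5' end itself at 604 (38.9%). Of the centres 50.7% were downstream. At the shared promoters of the same library the median was 298 bp downstream, the quartiles were −26.9 and 777 bp, 51.8% of the centres were within 500 bp and 72.6% were downstream. At the 1598 promoters with a peak in only 1 of the other 23 libraries 24.2% of the centres were within 500 bp, and the rest were scattered over the window.

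**Figure D2:**
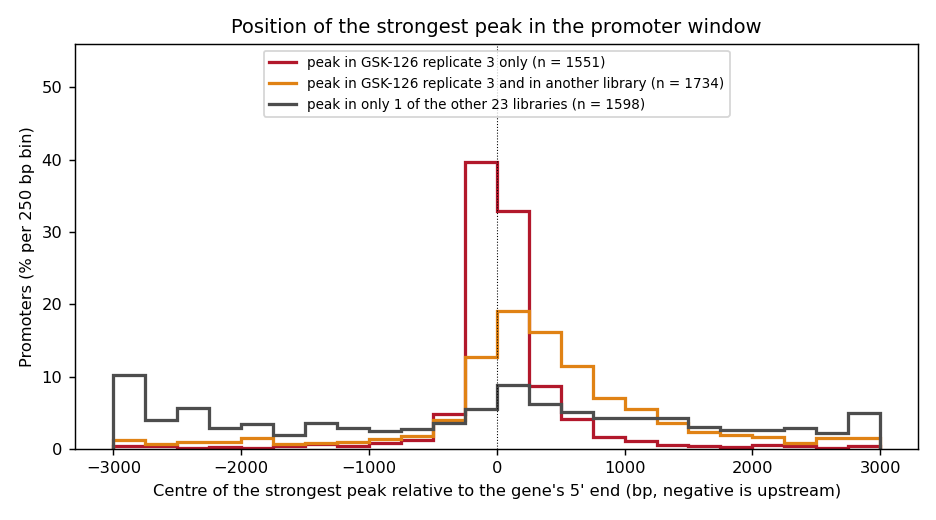
Centre of the strongest peak relative to the 5' end of the gene (x axis, bp, negative upstream; centres beyond 3000 bp are in the outermost bins) against the percentage of promoters per 250 bp bin (y axis), for members in red, shared promoters of GSK-126 replicate 3 in orange and promoters with a peak in only 1 of the other 23 libraries in grey. The red line is centred near 0 with 72.7% of the members within 250 bp, and the orange line leans downstream with a median of 298 bp.

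By annotation, the centre of the strongest peak fell in an untranslated region of some transcript at 588 members (37.9%), outside any annotated transcript at 527 (34.0%), in an intron at 223 (14.4%), in coding sequence at 132 (8.51%) and in an exon of a noncoding transcript at 81 (5.22%). The nearest peak of any other library was a median of 28.6 kb from a member's 5' end (range 3.04 to 412 kb). At 331 members (21.3%) it was within 10 kb. The rule itself set this distance above 3 kb, and it was not measured for any other set of promoters.

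A promoter was called CpG-rich when the 500 bp on each side of its 5' end had a CpG observed to expected ratio of at least 0.6 and a GC content of at least 50%. Of the members 1353 (87.2%) were CpG-rich, against 55.7% of the shared promoters, 34.8% of the promoters with a peak in only 1 of the other libraries and 44.4% of all promoters. The share of CpG-rich promoters with no peak elsewhere that were members was 20.3% (1353 of 6662). For other promoters with no peak elsewhere it was 2.33%. Within the members the 2 features went together, since 91.9% of the CpG-rich members had the centre of their peak within 500 bp of the 5' end, against 46.0% of the 198 that were not CpG-rich. Divergent promoters, where a gene on the other strand starts at most 1 kb upstream, made up 18.4% of the members, 5.42% of the shared promoters, 14.7% of the CpG-rich promoters with no peak in any library and 6.79% of all promoters. All 286 divergent members had a partner that was a member too, which follows in part from the shared peak.

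Short sequence motifs were counted on both strands in the 300 bases from 250 before to 50 after the start. None of the motifs contains another. CCAAT, the box bound by NF-Y, was present at 48.3% of the members, 37.4% of the shared promoters and 39.0% of all promoters. GGGCGGG, the SP1/KLF box, was present at 55.8% of the members, 43.0% of the shared promoters and 31.5% of all promoters. Among CpG-rich promoters alone, CCAAT was found at 48.7% of the members against 37.3% of those with no peak in any library, and GGGCGGG at 60.8% against 51.0%. The ETS motif CCGGAAG was found at 19.6% of the members against 5.94% of the shared and 10.8% of all promoters. For this motif the CpG-rich members, at 21.3%, lay close to the CpG-rich promoters without a peak, at 22.9%. The NRF1 core GCATGCGC (6.58% of the members, 1.79% of the shared and 3.71% of all promoters), the YY1 motif AAGATGG (7.67%, 4.50% and 6.22%), the CRE TGACGTCA (4.45%, 1.38% and 2.43%) and the E-box CACGTG (10.5%, 9.28% and 7.75%) differed by fewer percentage points. In proportion, NRF1 and CRE matches differed more between members and shared promoters than CCAAT did. For these motifs too, the CpG-rich members lay close to the CpG-rich promoters with no peak in any library. The shares were 7.24% against 7.12% for NRF1, 4.66% against 4.31% for CRE and 8.06% against 8.19% for YY1. For the E-box they were 11.01% against 11.77%. TATAAA was rarer in members, at 5.54%, than in the shared promoters, at 9.92%, and in all promoters, at 12.6%. Among CpG-rich promoters alone it was found at 3.92% of the members against 5.48% of those with no peak in any library. In the lines above, the ATTGG in the capitals of Hnrnpul2 and both CCAAT runs in the capitals of Sacm1l are matches to the NF-Y box, and the capitals of Nsun6 hold CCCGCCC and CCGGAAG. A match is a string of letters and not a measured binding site.

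By gene class, housekeeping genes were well represented and silent families had no member. Neuronal genes were few outside the list of granule neuron and general neuronal genes. With windows of 1 kb on each side, or with a −log10 q of at least 2 asked of all libraries, 0.0596% of the silent promoters were members. The lists were made of genes by name and function. Members were 15.7% of the 651 promoters in the housekeeping lists, 3.54% of the 339 in the neuronal lists (12 promoters), 3.29% of the 304 in the lists of developmental regulators (10 promoters) and 0 of 1678 in the lists of silent families. All lists together held 166 of the members, so 89.3% were in none. These shares also reflect that a promoter with a peak elsewhere cannot be a member, which applied to 59.9% of the neuronal, 50.7% of the developmental, 18.4% of the housekeeping and 10.9% of the silent promoters. Counted only over CpG-rich promoters with no peak elsewhere, 20.9% of the 435 housekeeping and 18.2% of the 44 neuronal promoters were members, next to 20.3% of all such promoters. On that count the housekeeping and neuronal shares were near the background, and the developmental share was 7.45% of 94. Of the silent promoters 1 was CpG-rich with no peak elsewhere, and none of the other 1494 with no peak elsewhere was a member. Among all promoters that were not CpG-rich and had no peak elsewhere, 2.33% were members.

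**Figure D3:**
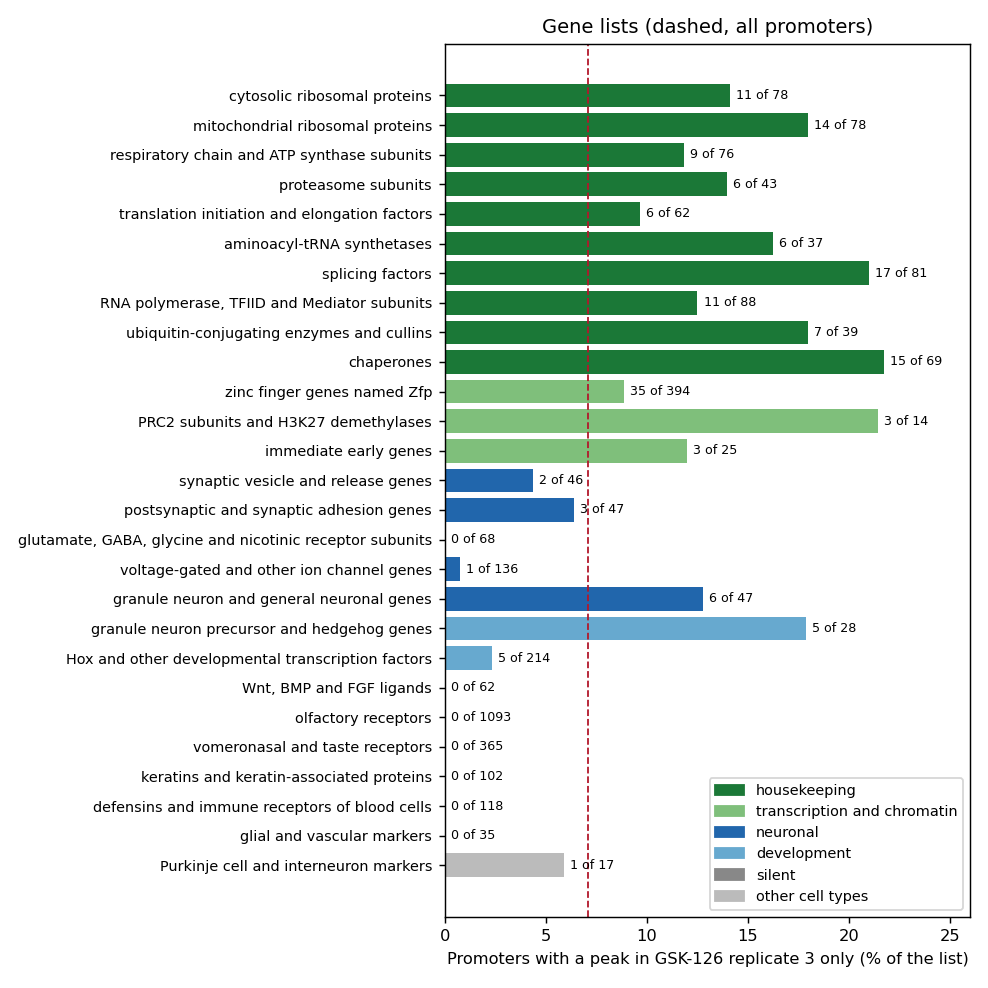
Percentage of each gene list that were members (x axis), by list, with the number of members and of promoters written beside each bar and colours for the class of the list. The dashed line is the 7.07% of all promoters, which all 10 housekeeping lists exceed, although 6 of them are below the background of 20.3% once only CpG-rich promoters with no peak elsewhere are counted, and no olfactory, vomeronasal, keratin or immune gene is a member.

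All 10 housekeeping lists were above 7.07%, from 9.68% of translation factors to 21.7% of chaperones. Over CpG-rich promoters with no peak elsewhere, their shares ran from 14.3% (translation factors and aminoacyl-tRNA synthetases) to 32.6% (chaperones), with 6 of the 10 lists below the 20.3% of all such promoters. The highest fold enrichment of a listed gene was at the heterogeneous nuclear ribonucleoprotein gene Hnrnpul2 (5.83, chr19:8819861-8820074, centre 42.5 bp upstream), whose peak also lay in the window of Ttc9c, the divergent neighbour. Among splicing factors, 17 of 81 were members, with Hnrnpc at 4.62, Sf1 at 4.63 and Srsf10 at 4.36 following Hnrnpul2. Cytosolic ribosomal protein genes gave 11 members of 78, all with the centre within 500 bp. Rps29 led them at 5.71, with the centre 173 bp upstream, followed by Rps13 at 4.81, Rps16 at 4.46 and Rps19 at 4.39. Mitochondrial ribosomal protein genes gave 14 of 78, led by Mrpl39 at 5.70 (chr16:84735355-84735437, 346 bp downstream) and then Mrpl18 at 4.94. The Mrpl18 peak was shared with the window of Tcp1, a subunit gene of the cytosolic chaperonin.

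Chaperone genes gave 15 of 69, led by the Hsp40 gene Dnaja1 at 5.46 (chr4:40722841-40722926, 733.5 bp downstream). The constitutive Hsp70 gene Hspa8 was at 4.49, with the centre 128.5 bp upstream. Respiratory chain and ATP synthase genes gave 9 of 76, with Atp5g1, which encodes the c subunit of ATP synthase, at 4.96 and Sdhd, a membrane anchor of complex II, at 4.71. All 9 had their peak within 500 bp of the 5' end. Proteasome genes gave 6 of 43, with the regulatory particle genes Psmd12 at 4.57, Psmd3 at 4.54 and Psmd11 at 4.53. Aminoacyl-tRNA synthetase genes gave 6 of 37, with Yars at 4.88 and Fars2 at 4.55. RNA polymerase, TFIID and Mediator genes gave 11 of 88, with the TFIID subunit gene Taf3 at 5.40, the TFIIH subunit gene Gtf2h5 at 5.04 and Polr2b, the second largest subunit of RNA polymerase II, at 4.96. The Polr2b peak was 519 bp long. Ubiquitin-conjugating enzymes and cullins gave 7 of 39, and translation factors 6 of 62, led by the helicase gene Eif4a1 at 4.49.

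Outside the lists, the highest value of all members was at Naf1, a factor for the assembly of box H/ACA small nucleolar ribonucleoproteins (6.25, chr8:66860448-66860771, 392.5 bp downstream, with the centre in coding sequence). Ttc9c followed at 5.83, then the adaptor gene of the WAVE actin regulatory complex Abi1 at 5.61, the intramembrane protease gene Sppl3 at 5.54, the cytochrome c oxidase assembly gene Cox20 at 5.48, the solute carrier gene Slc35f5 at 5.46, and Tceanc2 and Tmem59, which shared 1 peak, at 5.45. Of these, only the window of Slc35f5 did not pass both limits of the CpG-rich definition.

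Genes of the Polycomb pathway and of chromatin were among the members. Ezh2, the target of GSK-126, had a peak of 184 bp at 4.54 (chr6:47594960-47595143, 289.5 bp downstream of its 5' end at 47595341). The PRC2 accessory subunit gene Mtf2 was at 4.27 and the histone-binding subunit gene Rbbp4 at 4.15. These 3 were the members among 14 genes of PRC2 and the H3K27 demethylases (21.4%, beside 7.07% of all promoters). Over CpG-rich promoters with no peak elsewhere their share was 37.5% of 8, beside 20.3% of all such promoters. Of 394 zinc finger genes named Zfp, 35 were members (8.88%), which is near the 7.07% of all promoters. Of those with no peak elsewhere 11.5% were, beside 10.2% of all such promoters. Among them were Zfp41 at 5.40 and Zfp637 at 5.28. Zfp942 and Zfp943 share a divergent promoter and 1 peak of 495 bp at 4.98. Of 25 immediate early genes, 3 were members (12%), namely Btg2, an antiproliferative gene, at 4.27, the phosphatase gene Dusp1 at 4.11 and the AP-1 gene Jund at 3.93.

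The 12 neuronal members came from 4 of the 5 neuronal lists. No promoter of 68 glutamate, GABA, glycine and nicotinic receptor subunit genes was a member, and 1 of 136 ion channel genes was, the auxiliary calcium channel subunit gene Cacna2d3, whose peak was centred 1207.5 bp downstream. Of these receptor genes 63.2% and of the channel genes 70.6% had a peak in at least 1 other library. The members were Rab3a, a small GTPase of synaptic vesicles, at 4.97 and 23.5 bp upstream, and Synpr, a synaptic vesicle protein gene, at 4.18. Of the postsynaptic and adhesion genes, Nlgn2, the adhesion protein of inhibitory synapses, was at 4.23 and Gphn, its scaffold, at 4.15. The Nlgn2 peak was centred 661 bp upstream of Nlgn2 and 69 bp upstream of its divergent neighbour Tmem256, also a member. Of the granule neuron and general neuronal genes 6 of 47 were members (12.8%), above the 7.07% of all promoters, while the other neuronal lists lay below it. Over CpG-rich promoters with no peak elsewhere the share of this list was 28.6% of 14, beside 20.3% of all such promoters. Its members included the splicing regulator gene Rbfox2 at 4.50, the netrin receptor gene Unc5c at 4.34 and the microtubule regulator gene Stmn1 at 4.24. The tubulin gene Tubb5, at 4.43, was at the edge of the definition, with the centre of its peak 3047 bp upstream and 1.10% of the window covered. That peak was centred 162 bp upstream of another member, Mdc1.

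Precursor genes gave 5 of 28 (17.9%, beside 7.07% of all promoters), although 17 of the 28 had a peak elsewhere and could not be members. Among the 5 were the mitotic kinase gene Cdk1 at 4.21, the cyclin gene Ccna2 at 4.15, the hedgehog co-receptor gene Boc at 4.29 and the Hes family gene Hes6 at 4.03. Of 214 developmental transcription factor genes 5 were members (2.34%), and 4.39% of those with no peak elsewhere were, beside 10.2% of all such promoters, with Foxk2 at 4.15, Foxn1 at 4.03, Foxk1 at 3.95 and Foxo3 at 3.92. None of 62 Wnt, BMP and FGF ligand genes was, and 37 of them had a peak elsewhere. Among markers of other cell types, 0 of 35 glial and vascular genes were members, where 18 had a peak elsewhere, and 1 of 17 Purkinje cell and interneuron genes was, the inositol trisphosphate receptor gene Itpr1, at 4.39, where 11 had a peak elsewhere. Olfactory receptors (0 of 1093), vomeronasal and taste receptors (0 of 365), keratins and their associated proteins, and defensins and blood cell receptors (0 of 118) had no member. Of the 19 genes that the study used as examples, Ezh2 and Tubb5 were members.

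Members lay on every autosome and on the X chromosome. Their share of the promoters was between 4.40% (chromosome 7) and 10.4% (chromosome 12) on the autosomes, 1.69% on the X chromosome (16 of 948) and 0 of 183 on the Y chromosome. The X chromosome, where 23.8% of the promoters were CpG-rich, and chromosome 7, at 31.2%, were also the lowest in CpG-rich promoters after the Y chromosome. The order did not hold throughout. Chromosome 18, with 45.8% CpG-rich promoters, had 4.87% members, and chromosome 14, with 39.1%, had 7.98%.

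The library from which the members came differed from the other 23 in these same features. It had 7839 peaks, within the range of 4740 to 22832 of the others, and 3285 promoters with a peak, within 1348 to 3832. Members made up 47.2% of those promoters. The promoters peaked in 1 library alone numbered 11 to 212 in each of the other libraries (0.698% to 5.66% of their promoters), with 55 in GSK-126 replicate 1, 46 in GSK-126 replicate 2, and 67, 136 and 156 in DMSO replicates 1, 2 and 3. No other library came near the count of members. In 13 other libraries with at least 50 such promoters, 20.9% to 60.8% of them were CpG-rich and 12.3% to 47.4% had the centre of the peak within 500 bp, the highest value being that of DMSO replicate 3. Over all its promoters with a peak, 70.6% were CpG-rich in GSK-126 replicate 3, against 44.5% to 52.8% in the others, and 68.0% had the centre within 500 bp, against 31.4% to 48.6%. These 2 shares include the members, so they repeat in part what was described for them. At the shared promoters of the library alone they were 55.7% and 51.8%, closer to the ranges of the others but still above their highest values of 52.8% and 48.6%.

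**Figure D4:**
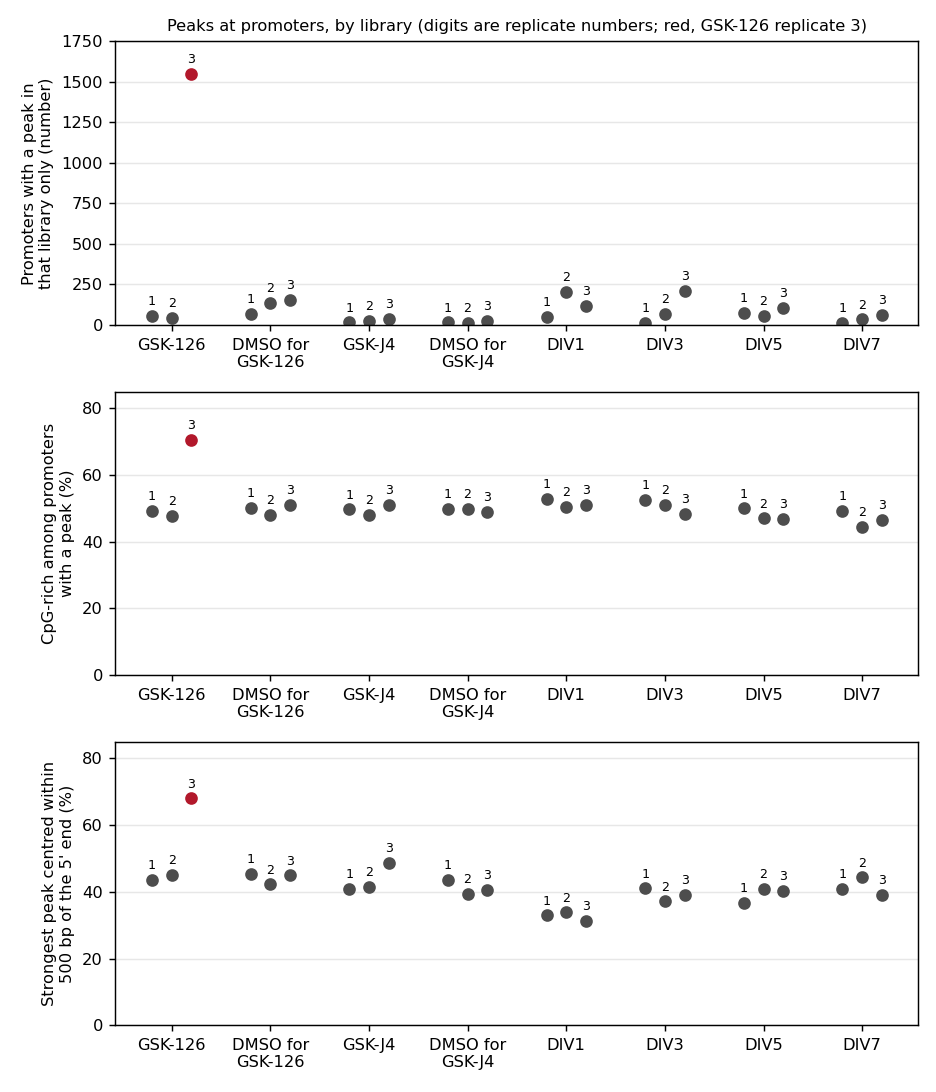
Each point is 1 of the 24 libraries, by group, with its replicate number. The upper panel counts promoters with a peak in that library only, the middle panel gives the percentage of CpG-rich promoters among those with a peak, and the lower panel the percentage whose strongest peak is centred within 500 bp of the 5' end. GSK-126 replicate 3 (red) stands at 1551, 70.6% and 68.0%, outside the range of the other 23 libraries in each panel. Its values in the middle and lower panels include the members.

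GSK-126 replicates 1 and 2 entered the choice of the members only through having no peak there. They were compared with DMSO replicates 1, 2 and 3 in the CpG-rich share and the share of centres within 500 bp. The measures were taken over all promoters with a peak in each of these libraries, none of which is a member. The CpG-rich share was 49.2% and 47.7% in GSK-126 replicates 1 and 2, against 50.0%, 47.97% and 51.1% in DMSO replicates 1, 2 and 3. The difference in means was −1.26 percentage points (exact two-sided permutation test, p = 0.4, adjusted p = 0.8 over the 2 measures). The share of centres within 500 bp was 43.7% and 45.0% in GSK-126 replicates 1 and 2, against 45.3%, 42.3% and 44.9% in the DMSO replicates, a difference of 0.168 percentage points (exact two-sided permutation test, p = 1.0, adjusted p = 1.0). The 2 groups overlapped in both measures. With 10 arrangements of the 5 libraries the smallest p is 0.2, so these tests could not reach 0.05. No conclusion on the compound is drawn from them.

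GSK-126 replicate 3 also held peaks that recurred across the study. Of 1893 promoters with a peak in DMSO replicates 1, 2 and 3, 1067 (56.4%) had one in GSK-126 replicate 3, beside 1327 (70.1%) in replicate 1 and 964 (50.9%) in replicate 2. Its peaks that no other library's peak overlapped numbered 2955 (37.7% of its peaks), and 1399 of them (47.3%) were centred within 500 bp of a protein-coding 5' end. In the other libraries 1.31% to 5.61% of such peaks were. A further 1336 lay over 3 kb from any protein-coding 5' end, within the 331 to 5753 of the other libraries. Private peaks at gene starts were not limited to the members. At 308 of the shared promoters (17.8%) the library had a peak that overlapped none of another library, and 72.1% of these 312 peaks were centred within 500 bp, against 45.5% of the 1887 peaks there that did overlap one. At long noncoding genes more than 6 kb from a protein-coding 5' end, GSK-126 replicate 3 had 49 windows with a peak in no other library, against 39, 74 and 50 in DMSO replicates 1, 2 and 3, and 5 to 81 over all other libraries, so its count there was within their range. These were 24.5% of its 200 such windows with a peak, against 9.65%, 14.4% and 11.7% in DMSO replicates 1, 2 and 3.

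The CpG-rich share was lower, and the share of centres downstream higher, with each step toward more other libraries that shared a promoter, while the share within 500 bp was lowest at 5 to 11. CpG-rich promoters were 87.2% of the members, 72.8% of the 180 promoters shared with 1 other library, 66.3% of those shared with 2 to 4, 53.8% with 5 to 11, 52.5% with 12 to 22 and 48.4% of the 285 shared with all 23. The share with the centre within 500 bp was 86.1%, 75.6%, 65.3%, 43.6%, 45.5% and 53.3% in the same order, and the share of centres downstream of the 5' end was 50.7%, 54.4%, 60.6%, 67.1%, 76.8% and 84.2%.

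**Figure D5:**
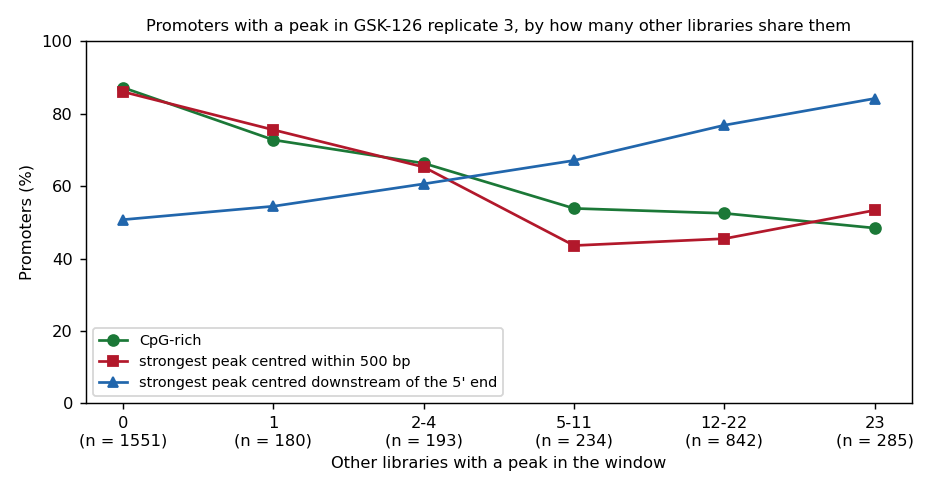
Promoters with a peak in GSK-126 replicate 3, by the number of other libraries with a peak in the same window (x axis), against the percentage that were CpG-rich, that had the strongest peak centred within 500 bp of the 5' end, and that had it downstream (y axis). The CpG-rich share is 87.2% at 0 other libraries and 48.4% at 23, and the downstream share is 50.7% at 0 and 84.2% at 23.

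At the limits of the definition, the 3 named members with the lowest −log10 q were Ddost at 1.02 (fold enrichment 3.81), Pcf11 at 1.02 (3.81) and Zfp687 at 1.02 (3.81), beside a lowest possible value of 1 in the lists. Just outside, the promoters with a peak in exactly 1 other library that had the highest fold enrichment were Smarca4, the chromatin remodeller gene, Dusp23 and Mrpl41. Smarca4 had 5.60 in GSK-126 replicate 3, 118.5 bp upstream, and 3.82 in DMSO replicate 3, 50.0 bp upstream. Mrpl41 had 5.52 in GSK-126 replicate 3 and 3.79 in DMSO replicate 1, 112.5 and 63.0 bp upstream. Dusp23 had 5.58 in GSK-126 replicate 3, 21 bp upstream, and 3.81 in DIV1 replicate 2, 2036.5 bp upstream. Of the 180 such promoters, 63 (35.0%) had overlapping peaks in the 2 libraries, and the single other library was DMSO replicate 3 for 40 of them, DIV1 replicate 2 for 26 and another for the rest.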

How the data were processed

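H3K27me3 CUT&RUN peak lists of 24 libraries were used. Per the labels and the study's methods, the authors trimmed reads with Trimmomatic 0.38, used STAR 2.7.2b for alignment to mm10 and MACS2 2.1 for broad peaks at an FDR of 0.1, library by library. The control of the calls is not given in the sources used here. The deposited lists give the fold enrichment (a ratio to local background) and the −log10 p and −log10 q of each peak, and the lowest −log10 q was just above 1. They hold no reads, so the depth is unknown, and a promoter without a peak is one below the caller's threshold. A library with more reads can call more peaks, which was not tested.

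Protein-coding genes, 5' ends and annotation were from GENCODE M21 (mm10) and sequence from GRCm38. The last peak of all 21 chromosomes lay within the reference length. Peaks and windows overlapped by at least 1 base, and the strongest peak was that with the highest fold enrichment. Exact permutation tests, two-sided, compared measures of whole libraries. The overlap and permutation steps were tested on simulated data. Members, gene lists and tests were chosen with earlier results of these data known. Named genes were the 12 members with the highest fold enrichment, up to 4 of each list, example genes that were members, the 3 lowest in −log10 q and the 3 highest just outside, without predicted gene models. Sacm1l and Nsun6 are named for their sequences, and Tmem256 and Mdc1 for a peak shared with a named member. Values of some single genes and 1 promoter sequence are not reported here. Python 3.11.15, numpy, pandas, scipy and pysam were used. Alternatives were windows of 1 and 5 kb, a −log10 q of at least 2, any transcript's 5' end, no other peak within 10 kb, a stricter CpG definition, the mean over peaks, the replicate number as a block and leaving out each library.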

Additional observations from a re-analysis of the deposited data

How the results depend on the processing

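The number of members was most sensitive to the caller's significance. With a −log10 q of at least 2 asked of GSK-126 replicate 3 alone, 0.930% of all promoters were members, of which 88.7% had the centre within 500 bp, with a median fold enrichment of 4.92, and 2.00% of housekeeping and 0.295% of neuronal promoters were members. With the same limit in all libraries 1.19% of all promoters were members, with 2.15% of housekeeping and 0.590% of neuronal promoters. With that limit in all libraries, and also with windows of 1 kb on each side, 0.0596% of silent promoters were members. With windows of 1 kb 89.9% were CpG-rich and 91.1% had the centre within 500 bp. That share was 92.1% to any annotated transcript 5' end and 88.4% where an overlap with the 500 bp counted. With a CpG ratio of at least 0.75 and a GC content of at least 55%, 58.9% were CpG-rich.

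Leaving out each of the other 23 libraries gave 7.07% to 7.25% of all promoters as members, 86.9% to 87.3% CpG-rich, 85.8% to 86.1% within 500 bp, a median fold enrichment of 4.30, and 15.7% to 15.98% of housekeeping, 3.54% to 3.83% of neuronal and 0.0% of silent promoters.

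For GSK-126 replicates 1 and 2 against DMSO, the replicate block, which assumes a pairing by number that the labels do not state, gave a difference of −0.562 points in the CpG-rich share and 0.549 points in the share within 500 bp. With GSK-126 replicate 3 included the CpG-rich difference turned to 6.12 points, and the difference within 500 bp became 8.06 points. That library holds the members, which its own peaks chose, so these 2 values are a description and are given no test. For replicates 1 and 2 alone, the difference within 500 bp turned to −4.52 points at a −log10 q of at least 2. Leaving out each library gave −2.11 to −0.524 points in the CpG-rich share and −0.781 to 0.854 points within 500 bp, negative without GSK-126 replicate 2 (−0.518) or without DMSO replicate 2 (−0.781). The causes were not tested. All members come from 1 library of unknown depth, so nothing here has a replicate.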
